A study of Mus musculus with 20 samples.

Results

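The comparison set 8 libraries of mouse blood progenitors that carried a mutant isocitrate dehydrogenase, taken as one group, against 4 wild-type libraries, 12 of the 20 libraries of the series. The group was made of the 4 Idh1R132H libraries (Idh1LSL-R132H/+;Vav-Cre) and the 4 Idh2R140Q libraries (Idh2LSL-R140Q/+;Vav-Cre), and the controls (WT) were +/+;Vav-Cre, so every mouse carried Vav-Cre, a recombinase expressed in blood-forming cells, and each mutant was heterozygous for a conditional allele. The mice were C57Bl/6J, 3 to 4 months old, and each library was total RNA of one pool of 2 mice, with pools numbered 1 to 4 in each group. The libraries were chosen by genotype alone, and no measured value entered the choice. The sorted bone marrow fraction was Lin-cKit+Sca1+ (LSK), in which blood stem cells and early progenitors are found. The question was which RNA levels the 2 mutants share in their distance from WT, and where pooling them hides a difference between them.

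Isocitrate dehydrogenases turn isocitrate into 2-oxoglutarate, Idh1 in the cytosol and Idh2 in mitochondria. The R132H and R140Q proteins instead make 2-hydroxyglutarate, which can inhibit enzymes that use 2-oxoglutarate, among them the TET proteins that oxidise methylcytosine, many histone demethylases and the prolyl hydroxylases that act on HIF. Mutations of both genes occur in human acute myeloid leukaemia. These are background facts and were not measured here.

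Levels are in TPM, a transcript abundance corrected for gene length and scaled to one total per library, and differences are log2(TPM + 1) of the mutants minus WT with their SE from the model, a scale that understates the change of genes near 1 TPM. The fit held the pool number as a block. The depth rebuilt from the table was 37000000 to 44950000 assigned reads per library. In every group the odd-numbered pools had female and the even-numbered pools male RNA, and the 3 pools numbered 4 stood apart. The gene model Gm23935, annotated as a miRNA, took 7.55 to 8.03% of TPM there, while in numbers 1 to 3 it took 11.4 to 12.8% in mutants and 11.96 to 13.5% in WT. Genes of the sort were high, with Kit at 341 to 487 TPM in mutant pools and 335 to 427 in WT pools, and Ly6a, which encodes Sca1, at 143 to 197 and 149 to 185. Markers of mature cells were mixed. Pax5, Ms4a1 and Cd3e, which define B and T cells, stayed under 1 TPM in all 12 libraries, while Cd79b was at 74.9 to 85.5 TPM in mutants and 81.8 to 95.5 TPM in WT, and Lck at 27.1 to 63.3 TPM in mutants and 29.9 to 56.0 TPM in WT. The plasma cell genes Igha and Jchain were also present, Igha at 378 to 1126 TPM in mutants and 421 to 769 TPM in WT, and Jchain at 216 to 444 and 251 to 385 TPM. Neutrophil markers had a summed level of 158, 84.6, 78.5 and 90.5 TPM in Idh1R132H pools and 60.4, 78.7, 409.8 and 58.1 TPM in Idh2R140Q pools, against 68.1, 40.3, 109.9 and 62.7 TPM in WT pools, so Idh2R140Q pool 3 and Idh1R132H pool 1 lay above every WT pool. Of the 10 neutrophil markers tested 9 lay above 0 (70.4% of all genes), and none had an unadjusted p under 0.05. The pooled median was 0.61, and 0.37 to 0.82 with 1 library left out. In sorted bulk RNA, a different share of a cell type and a different level per cell cannot be told apart.

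Idh1 (ENSMUSG00000025950, chromosome 1, 65158616 to 65186500, minus strand, mm10) had 114, 83.3, 122 and 95.8 TPM in Idh1R132H pools 1 to 4 and 85.8, 83.2, 120.5 and 92.2 TPM in Idh2R140Q pools 1 to 4, against 83.9, 74.3, 94.9 and 102 TPM in WT pools 1 to 4. The groups overlapped, and the pooled difference was 0.16 ± 0.08 (adjusted p = 0.381). Idh2 (ENSMUSG00000030541, chromosome 7, 80094846 to 80115392, minus strand) had 474 to 624 TPM (median 499.6) in the 8 mutant pools, against 469.7 to 647 TPM in the WT pools, a difference of 0.01 ± 0.04 whose sign changed under other scalings. A gene's TPM counts reads of both alleles, so these levels do not check which pools carried the mutation. Tet2 (ENSMUSG00000040943, chromosome 3, 133463679 to 133545139, minus strand), which encodes one of the methylcytosine oxidases, had 8.11, 7.71, 8.51 and 11.1 TPM in Idh1R132H pools 1 to 4 and 8.14, 9.91, 8.32 and 13.4 TPM in Idh2R140Q pools 1 to 4, against 7.22, 6.67, 6.89 and 9.23 TPM in WT pools 1 to 4. Within each number the mutants lay above WT, by 0.15, 0.35, 0.25 and 0.37 for numbers 1 to 4, and the pooled difference was 0.28 ± 0.08 with an adjusted p of 0.286.

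No gene passed the test in the pooled comparison. Of 13962 genes whose 12-library mean reached 1 TPM, limma with Benjamini-Hochberg adjustment called 0 (0.0%), the smallest adjusted p was 0.277, and limma-voom on rebuilt read counts called 0 as well. An unadjusted p under 0.05 was reached by 1985 genes (14.2%), 1618 (11.6%) with a positive and 367 (2.63%) with a negative difference, and by limma-voom 1653. The count was 475 when the pool number was not used as a block and 1074 without WT pool 2. Of all genes tested, 9826 (70.4%) lay above 0, and the median difference was 0.06. The mutant mean lay above WT in all 4 numbers for 2594 genes (18.6%) and below it for 836 (5.99%). That tilt followed the scaling. Positive differences made up 81.5% of the genes at an unadjusted p under 0.05 with TPM as deposited, 40.9% after median-of-ratios scaling, where the median gene was at -0.003, and 38.6% after quantile normalization. Each gene below is therefore best read beside the median of all genes.

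The differences also went with gene length. Genes with up to 1000 bases of exon had a median difference of 0.02, those of 1000 to 2000 bases -0.006, those of 2000 to 4000 bases 0.04, those of 4000 to 8000 bases 0.07 and those over 8000 bases 0.11. In the longest class 472 of 1982 genes had an unadjusted p under 0.05 with a positive difference and 5 with a negative one. With the trend of length taken out of each library, 1565 genes were higher and 214 lower at an unadjusted p under 0.05 (88.0% positive), with a median of 0.06. That step put the mean level of each library back, so it could not remove a tilt shared by genes of all lengths. Whether this order of lengths is part of the genotype was not tested.

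**Figure D1:**
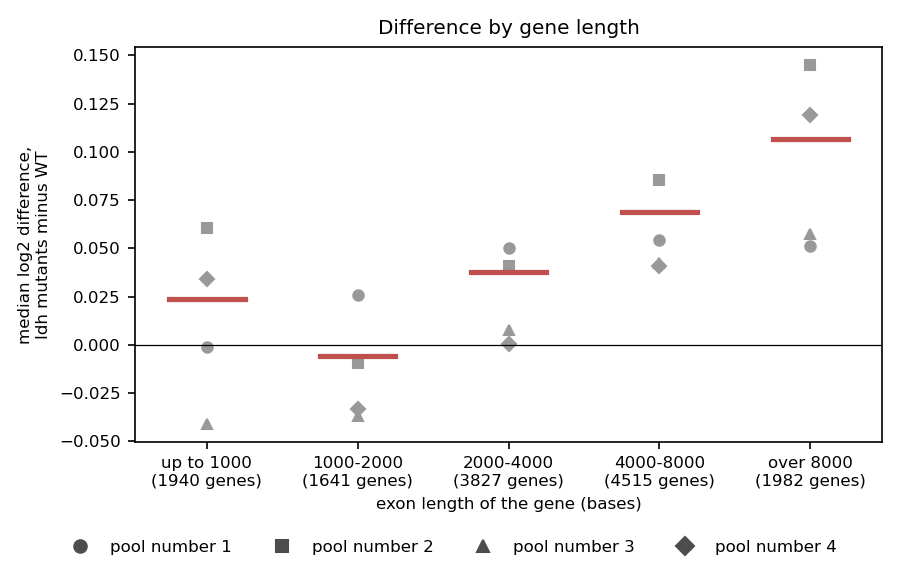
Median log2 difference (Idh mutants minus WT) of genes grouped by exon length in bases, with red bars for the pooled fit and grey symbols for each pool number. The pooled medians lie between -0.006 for 1000 to 2000 bases and 0.11 for genes over 8000 bases.

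Few genes were fully apart between the groups, and none of them passed the test. All 8 mutant libraries lay below all 4 WT libraries for 11 genes (0.0788% of those tested), of which the naming rule left 2 aside, and the other 9 had adjusted p-values of 0.277 to 0.29. Padi4 (ENSMUSG00000025330, chromosome 4, 140745865 to 140774236, minus strand), whose enzyme converts histone arginine to citrulline, had 33.7, 35.6, 35.9 and 40.8 TPM in Idh1R132H pools 1 to 4 and 29.9, 43.3, 36.8 and 42.9 TPM in Idh2R140Q pools 1 to 4, against 51.6, 44.6, 50.97 and 53.2 TPM in WT pools 1 to 4. The groups did not overlap, and the difference was -0.42 ± 0.08 (adjusted p = 0.277), -0.45 ± 0.10 in Idh1R132H and -0.39 ± 0.10 in Idh2R140Q. In the 4 Idh2R172K libraries, from Idh2LSL-R172K/+;Vav-Cre mice and not part of the comparison, Padi4 had 0.949 to 1.66 TPM.

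Capsl (ENSMUSG00000039676, chromosome 15, 9436028 to 9466038, plus strand), which encodes a calcium-binding protein, had 4.28, 5.57, 5.64 and 6.78 TPM in Idh1R132H pools 1 to 4 and 6.87, 7.69, 5.41 and 7.35 TPM in Idh2R140Q pools 1 to 4, against 8.27, 8.55, 9.17 and 9.86 TPM in WT pools 1 to 4. The pooled difference was -0.48 ± 0.12, and Idh1R132H pool 1 was the lowest of the 12. Il22ra2, the soluble receptor that binds interleukin-22, had 1.61 to 2.55 TPM (median 1.94) in the 8 mutant pools, against 2.62 to 3.52 TPM in the WT pools (-0.42 ± 0.11). Alad (ENSMUSG00000028393, chromosome 4, 62509169 to 62519918, minus strand), the haem synthesis enzyme that makes porphobilinogen, had 139, 146, 137 and 133 TPM in Idh1R132H pools 1 to 4 and 123, 142, 149 and 129.96 TPM in Idh2R140Q pools 1 to 4, against 152, 154, 158 and 150.03 TPM in WT pools 1 to 4. Its difference was small but present in all numbers, at -0.21, -0.09, -0.14 and -0.19, and -0.16 ± 0.04 in the pooled fit (adjusted p = 0.28). Snx31, a sorting nexin, had 3.22 to 4.62 TPM (median 4.06) in the 8 mutant pools, against 4.75 to 5.79 TPM in the WT pools (-0.31 ± 0.09). The other 4 were Thyn1, at -0.15 ± 0.04, Guk1, the guanylate kinase, at -0.10 ± 0.03, Atp9a, a member of the phospholipid flippase family, at -0.29 ± 0.09, and Nrg4, an EGF-family ligand, at -0.27 ± 0.09. Their choice by full separation fixed the sign in runs that left out a library or changed the fit. In the runs that rescaled the values all 9 stayed negative. Those runs moved the median gene down, from 0.06 to between 0.04 and -0.005, so they were no strong test of a negative sign. In Idh2R172K pools the levels of Capsl (0.52 to 1.54 TPM), Il22ra2 (0.361 to 0.69), Snx31 (0.77 to 1.48) and Alad (70.8 to 89.9) lay below all 12 libraries of the comparison. Thyn1 and Guk1 had 49.5 to 59.1 and 62.6 to 74.4 TPM in Idh2R172K and are not placed against the 12 libraries here. Idh2R172K levels of Atp9a and Nrg4 are not given here.

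**Figure D2:**
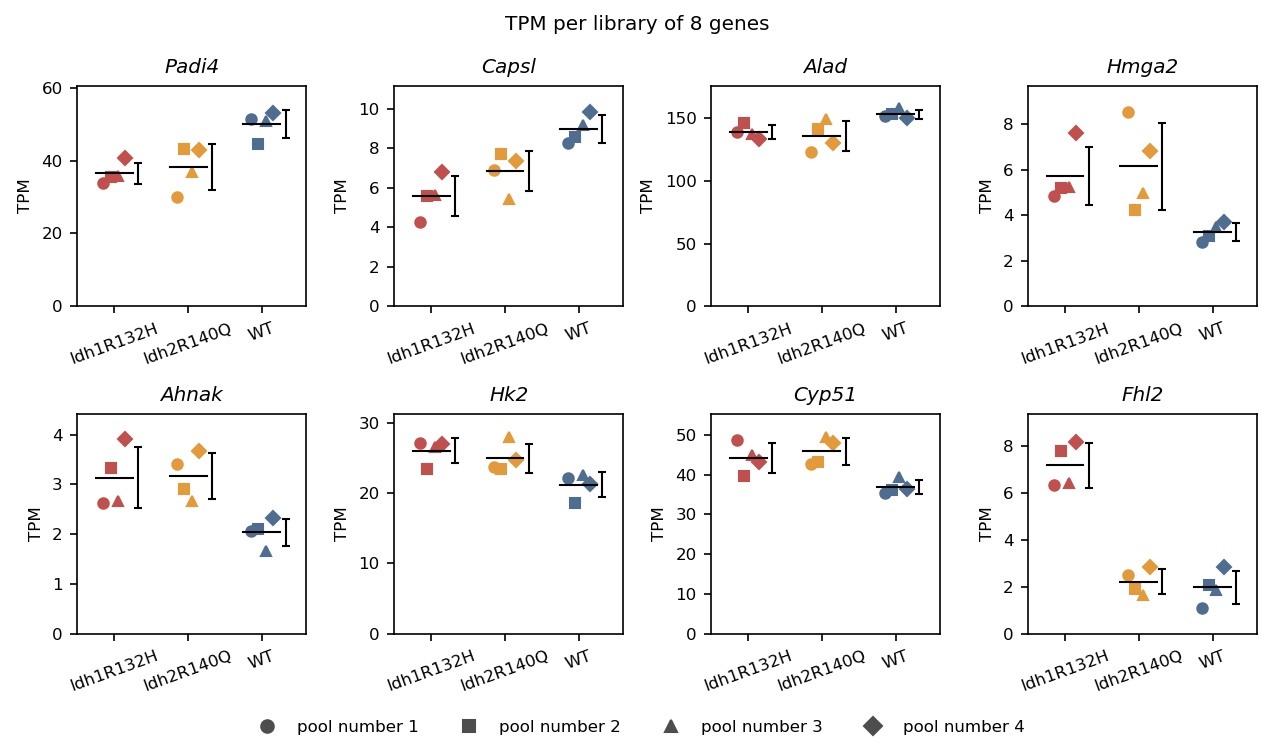
TPM of 8 genes in each library of Idh1R132H, Idh2R140Q and WT, with a symbol for the pool number, a line for the mean and a bar for the SD (n = 4 pools). For the first 7 genes the 8 mutant pools do not overlap the 4 WT pools, while for Fhl2 the Idh1R132H pools alone stand apart.

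In the other direction, all 8 mutant libraries lay above all 4 WT libraries for 34 genes (0.244% of those tested), and the naming rule left 3 of these aside. The 12 of the remaining 31 with the smallest p are given here, and all 12 had adjusted p-values of 0.277 to 0.28. The 3 of these with the greatest differences were Hmga2, Slc35d3 and Ahnak. Hmga2 (ENSMUSG00000056758, chromosome 10, 120361275 to 120476469, minus strand), a chromatin protein of fetal stem cells, had 4.86, 5.21, 5.25 and 7.63 TPM in Idh1R132H pools 1 to 4 and 8.52, 4.23, 5.00 and 6.83 TPM in Idh2R140Q pools 1 to 4, against 2.83, 3.07, 3.50 and 3.69 TPM in WT pools 1 to 4. The mutant pools spread from 4.23 upward and the difference was 0.68 ± 0.14 (adjusted p = 0.277), with 10.05 to 14.8 TPM in Idh2R172K. Slc35d3, a member of the nucleotide sugar transporter family, had 13.1, 10.7, 15.8 and 16.9 TPM in Idh1R132H pools 1 to 4 and 23.3, 12.5, 13.8 and 25.6 TPM in Idh2R140Q pools 1 to 4, against 10.2, 7.55, 10.7 and 10.3 TPM in WT pools 1 to 4. The pools Idh2R140Q 1 and 4 were the highest, and the difference was 0.67 ± 0.16. Ahnak (ENSMUSG00000069833, chromosome 19, 8989284 to 9076914, plus strand), a very large scaffold protein, had 2.63 to 3.90 TPM (median 3.12) in the 8 mutant pools, against 1.67 to 2.32 TPM in the WT pools, a difference of 0.44 ± 0.08, and like other long genes it stands in the class with the upward median.

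Hk2 (ENSMUSG00000000628, chromosome 6, 82725025 to 82774454, minus strand), the hexokinase that starts glucose use, had 27.1, 23.4, 26.6 and 27.02 TPM in Idh1R132H pools 1 to 4 and 23.6, 23.4, 27.9 and 24.7 TPM in Idh2R140Q pools 1 to 4, against 22.2, 18.6, 22.6 and 21.3 TPM in WT pools 1 to 4. Its difference was 0.26 ± 0.05, 0.29 ± 0.05 in Idh1R132H and 0.23 ± 0.05 in Idh2R140Q. Zbtb16, which encodes the transcription factor PLZF, had 6.92 to 10.02 TPM (median 7.66) in the 8 mutant pools, against 4.73 to 6.42 TPM in the WT pools (0.38 ± 0.09), and 13.3 to 16.8 TPM in Idh2R172K. Cbl, a ubiquitin ligase that limits kinase receptor signalling, had 33.1 to 42.2 TPM (median 36.7) in the 8 mutant pools, against 30.9 to 31.9 TPM in the WT pools (0.23 ± 0.04). Sntb1, a syntrophin of the cell cortex, had 12.3 to 14.8 TPM (median 13.99) in the 8 mutant pools, against 10.3 to 12.2 TPM in the WT pools (0.30 ± 0.06). Here Idh2R172K lay the other way, at 5.70 to 6.46 TPM. Ube2j1, a ubiquitin-conjugating enzyme of the endoplasmic reticulum, had 79.6 to 91.5 TPM (median 86.1) in the 8 mutant pools, against 71.04 to 79.5 TPM in the WT pools (0.16 ± 0.03). Zkscan8 and Zbtb44, a pair of zinc finger genes, had differences of 0.28 ± 0.06 and 0.22 ± 0.05, and Mettl4, a methyltransferase, 0.17 ± 0.04. Cyp51 was the last of the 12 and is described with the sterol genes. For these genes too, full separation fixed the sign in runs that left out a library or changed the fit. In the runs that rescaled the values, all 12 stayed positive, also where the median gene was at or below 0. The median gene moved there from 0.06 to -0.003 or -0.005. This move was smaller than the smallest of the 12 differences, 0.16 for Ube2j1, so it left little room for a change of sign.

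Gene lists were described by their counts and medians, since no list was tested as a set. The lists were written with earlier results of these data known. The interferon response genes lay mostly above WT, with 45 of 50 above 0 (70.4% of all genes), 20 at an unadjusted p under 0.05 with a positive and 1 with a negative difference (all genes 11.6% and 2.63%), and none called. The median was 0.18 against 0.06 for all genes, 0.32, 0.10, 0.20 and 0.09 in numbers 1 to 4, and 0.10 to 0.17 under the 3 other scalings. Parp14, an ADP-ribosyl transferase, had 20.6, 21.1, 21.3 and 32.4 TPM in Idh1R132H pools 1 to 4 and 20.5, 20.5, 20.7 and 28.8 TPM in Idh2R140Q pools 1 to 4, against 16.3, 18.6, 18.5 and 27.5 TPM in WT pools 1 to 4. Within each number both mutants lay above WT, and the difference was 0.20 ± 0.05 (adjusted p = 0.28). Stat2 (ENSMUSG00000040033, chromosome 10, 128270559 to 128292849, plus strand), the signal transducer of type I interferon, had 32.4, 27.5, 31.5 and 53.3 TPM in Idh1R132H pools 1 to 4 and 31.5, 28.5, 28.4 and 51.6 TPM in Idh2R140Q pools 1 to 4, against 26.1, 24.5, 26.3 and 50.9 TPM in WT pools 1 to 4. The pools numbered 4 were the high ones in all 3 groups, and the difference was 0.17 ± 0.05. Trim30a, an interferon-induced member of the TRIM family, had 50.6 to 68.05 TPM (median 58.3) in the 8 mutant pools, against 47.7 to 56.2 TPM in the WT pools (0.22 ± 0.06) and Ifi44 15.6 to 29.99 TPM (median 23.4) in the 8 mutant pools, against 13.5 to 18.7 TPM in the WT pools (0.54 ± 0.16).

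Irf7, the regulator that keeps interferon genes on (named after its values were seen), had 50.2, 35.1, 48.8 and 69.9 TPM in Idh1R132H pools 1 to 4 and 49.2, 26.5, 38.9 and 43.8 TPM in Idh2R140Q pools 1 to 4, against 26.7, 26.6, 28.1 and 48.9 TPM in WT pools 1 to 4. Its difference was 0.46 ± 0.15, 0.64 ± 0.14 in Idh1R132H and 0.29 ± 0.14 in Idh2R140Q. Over the whole list Idh1R132H had a median of 0.25, with 48 members above 0 (65.0% of all genes) and 33 higher and 0 lower at an unadjusted p under 0.05 (6.16% and 2.52%). Idh2R140Q had a median of 0.10, with 40 above 0 (71.4% of all genes) and 4 higher and 1 lower (17.5% and 3.76%). Both were set against the same WT pools. Between the mutants, Idh2R140Q minus Idh1R132H, the median was -0.17, with 18 members at an unadjusted p under 0.05 on the Idh1R132H side and 1 on the other (all genes 3.4% and 8.16%), and none called. Ifi27, a member named after its values were seen, had 239, 229, 262 and 248 TPM in Idh1R132H pools 1 to 4 and 205, 135, 169.5 and 131.8 TPM in Idh2R140Q pools 1 to 4, against 175, 173, 172.2 and 167 TPM in WT pools 1 to 4. The Idh1R132H pools lay above all WT pools, Idh2R140Q pool 1 lay above, pool 3 within and pools 2 and 4 below the range of WT, and the mutants differed by -0.63 ± 0.10 (adjusted p = 0.225). The mean log2 level of the list was 5.10, 4.89, 5.16 and 5.46 in Idh1R132H pools 1 to 4, 5.09, 4.78, 4.91 and 5.00 in Idh2R140Q and 4.73, 4.74, 4.79 and 5.14 in WT. WT pools 1 and 2 lay below every mutant pool, WT pools 3 and 4 lay inside the range of the mutants, and the groups overlapped.

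Interferon-stimulated genes are switched on through an element, the ISRE, bound by a complex that holds Stat2. The promoters of Stat2 itself and of Trim30a are shown because both were among the 4 members with the smallest p. Each covers 250 bases before to 50 after the gene's start (RefSeq, GRCm38.p6), is written in the direction of the gene, and has in capitals the match to the motif searched on both strands, GAAA and again GAAA in the same direction with 2 bases between. Stat2 lies at chr10:128270248-128270547 on the plus strand and Trim30a at chr7:104465144-104465443 on the minus strand.
Stat2: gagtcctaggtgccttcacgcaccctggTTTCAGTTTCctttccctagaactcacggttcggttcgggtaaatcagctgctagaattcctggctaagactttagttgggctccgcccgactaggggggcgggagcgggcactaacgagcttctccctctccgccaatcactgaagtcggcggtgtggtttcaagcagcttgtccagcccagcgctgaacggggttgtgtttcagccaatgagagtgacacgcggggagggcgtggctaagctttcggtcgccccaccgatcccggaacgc
Trim30a: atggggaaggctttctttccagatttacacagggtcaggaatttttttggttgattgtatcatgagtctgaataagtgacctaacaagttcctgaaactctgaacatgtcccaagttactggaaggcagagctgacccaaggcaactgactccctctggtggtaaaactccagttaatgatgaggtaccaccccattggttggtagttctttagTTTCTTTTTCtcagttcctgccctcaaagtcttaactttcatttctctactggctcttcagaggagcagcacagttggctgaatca
Both matches lie on the opposite strand and so read as TTTC, 2 other bases and TTTC. Of the 50 listed genes, 39 had a promoter entry and 22 of those held a match, against 3.94% of the 9513 tested genes with an entry. A match is a run of letters and not a measured site.

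The genes of sterol synthesis and of the SREBP2 programme, which cells use to make and regulate cholesterol, were listed after their values were seen, since Cyp51 was among the separated genes. Of the 24 genes, 19 lay above 0 (70.4% of all genes), 11 at an unadjusted p under 0.05 with a positive and 0 with a negative difference (11.6% and 2.63% of all genes), and none was called. The median was 0.15, with 0.13, 0.16, 0.14 and 0.16 in numbers 1 to 4 and 0.08 to 0.14 under the other scalings. Cyp51 (ENSMUSG00000001467, chromosome 5, 4081145 to 4104746, minus strand), which demethylates lanosterol, had 48.7, 39.6, 44.9 and 43.3 TPM in Idh1R132H pools 1 to 4 and 42.7, 43.2, 49.6 and 47.9 TPM in Idh2R140Q pools 1 to 4, against 35.4, 36.1, 39.4 and 36.5 TPM in WT pools 1 to 4. The groups did not overlap, and the difference was 0.28 ± 0.05 (adjusted p = 0.277). Insig1, which holds the SREBP proteins in the endoplasmic reticulum, had 36.9 to 49.7 TPM (median 47.2) in the 8 mutant pools, against 33.3 to 40.4 TPM in the WT pools (0.31 ± 0.09). Hmgcs1, an early enzyme of the path, had 64.5 to 84.3 TPM (median 73.2) in the 8 mutant pools, against 56.05 to 70.7 TPM in the WT pools (0.22 ± 0.05), and Idi1, the isopentenyl isomerase, 9.61 to 12.8 TPM (median 10.9) in the 8 mutant pools, against 7.51 to 11.1 TPM in the WT pools (0.25 ± 0.06). The regulator Srebf2 was at 0.05 ± 0.06. Idh1R132H and Idh2R140Q had list medians of 0.12 and 0.18.

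Promoters of this path often hold a CCAAT box, bound by NF-Y, near the site for SREBP2. Those of Cyp51 (chr5:4104648-4104947, minus strand) and Hmgcs1 (chr13:119690101-119690400, plus strand) are shown in the same way, with ATTGG or its reverse complement CCAAT in capitals, because these are a late and an early enzyme of the path.
Cyp51: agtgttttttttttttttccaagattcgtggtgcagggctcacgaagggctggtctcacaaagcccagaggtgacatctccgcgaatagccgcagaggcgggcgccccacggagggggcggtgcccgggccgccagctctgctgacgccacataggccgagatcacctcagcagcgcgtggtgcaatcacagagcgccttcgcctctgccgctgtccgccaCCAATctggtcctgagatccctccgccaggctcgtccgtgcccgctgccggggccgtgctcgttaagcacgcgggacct
Hmgcs1: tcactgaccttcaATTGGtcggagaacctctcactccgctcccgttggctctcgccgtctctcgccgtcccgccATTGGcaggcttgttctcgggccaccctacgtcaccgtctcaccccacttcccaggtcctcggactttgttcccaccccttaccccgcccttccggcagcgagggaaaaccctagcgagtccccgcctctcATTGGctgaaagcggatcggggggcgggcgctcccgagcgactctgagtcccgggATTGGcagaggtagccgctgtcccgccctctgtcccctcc
Cyp51 held 1 match and Hmgcs1 4. All 16 listed genes with an entry held a match, against 43.0% of tested genes.

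**Figure D3:**
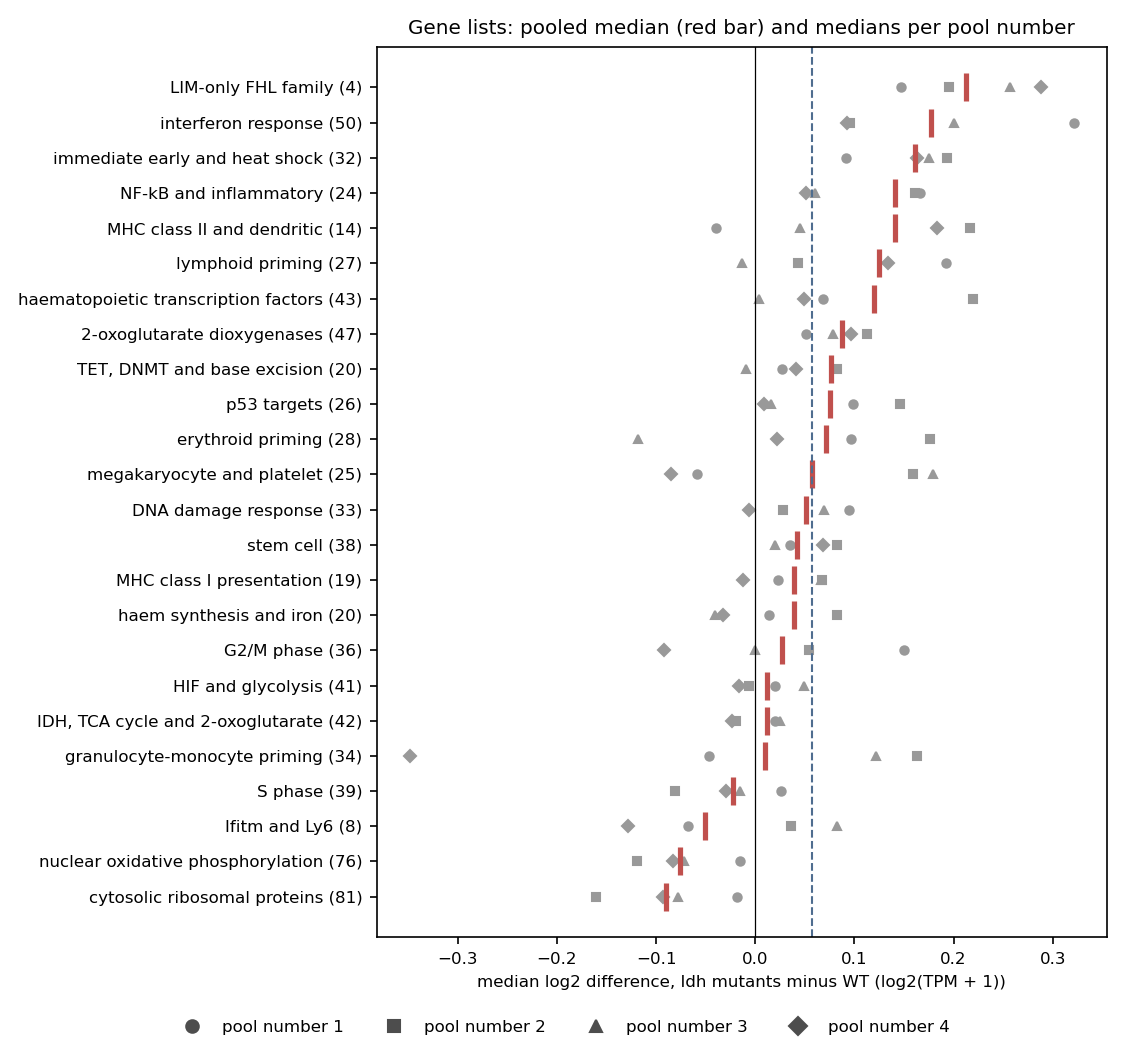
Median log2 difference (Idh mutants minus WT) of 24 gene lists with the number of members tested, the pooled value as a red bar and the medians within pool numbers as grey symbols, with a dashed line at the median of all genes. The interferon list lies at 0.18 and the ribosomal protein list at -0.09, while the granulocyte-monocyte list spreads widely between numbers.

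Among enzymes that use 2-oxoglutarate the differences were small. Of 47 dioxygenases other than the TET proteins, 39 lay above 0 (70.4% of all genes) and 11 had an unadjusted p under 0.05, all positive (11.6% of all genes), with a median of 0.09 that was 0.02 under both median-of-ratios and quantile scaling. Jmjd4, a lysyl hydroxylase, had 10.2 to 16.4 TPM (median 11.6) in the 8 mutant pools, against 7.57 to 15.00 TPM in the WT pools (0.27 ± 0.07), and P4ha1, a collagen prolyl hydroxylase, 29.6 to 42.1 TPM (median 34.5) in the 8 mutant pools, against 26.3 to 38.9 TPM in the WT pools (0.21 ± 0.07). Among 20 genes of DNA methylation and base excision 14 lay above 0, near the 70.4% of all genes. The median was 0.08 and fell as low as 0.009 in the alternative runs. Beside Tet2, Tet3 had 21.1 to 27.8 TPM (median 22.9) in the 8 mutant pools, against 19.2 to 22.5 TPM in the WT pools (0.17 ± 0.05) and Dnmt3a, a methyltransferase that sets new marks, 20.3 to 29.99 TPM (median 22.6) in the 8 mutant pools, against 18.96 to 22.3 TPM in the WT pools (0.18 ± 0.07). Of 41 HIF targets and glycolysis genes, 6 had an unadjusted p under 0.05 with a positive and 1 with a negative difference. These counts were near the shares of all genes (11.6% and 2.63%), and the median of 0.01 turned to -0.05 under median-of-ratios scaling. Hif1a had 46.1 to 58.05 TPM (median 53.95) in the 8 mutant pools, against 45.6 to 50.3 TPM in the WT pools (0.18 ± 0.04). The 42 genes of isocitrate, the TCA cycle and 2-oxoglutarate had a median of 0.01, with the same turn.

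Haematopoietic transcription factors had 38 of 43 members above 0 (70.4% of all genes), 7 at an unadjusted p under 0.05, all positive (11.6% of all genes), and a median of 0.12 (0.06 to 0.11 under the other scalings). Runx1 (ENSMUSG00000022952, chromosome 16, 92601466 to 92826149, minus strand), a master regulator of blood stem cells, had 47.3, 43.8, 49.8 and 49.7 TPM in Idh1R132H pools 1 to 4 and 48.3, 53.5, 50.6 and 54.1 TPM in Idh2R140Q pools 1 to 4, against 41.03, 36.7, 44.4 and 41.1 TPM in WT pools 1 to 4. The groups overlapped by 1 pool on each side, Idh1R132H 2 and WT 3. The difference was 0.28 ± 0.06 (adjusted p = 0.28). Myb, needed for progenitor growth, had 271 to 371 TPM (median 293) in the 8 mutant pools, against 237 to 359 TPM in the WT pools (0.16 ± 0.03), with number 4 high in all groups, and Ikzf1, a lymphoid regulator, 108 to 148 TPM (median 124) in the 8 mutant pools, against 104 to 126 TPM in the WT pools (0.12 ± 0.04). Of 33 DNA damage genes, 28 lay above 0 (70.4% of all genes) and 8 had an unadjusted p under 0.05, all positive (11.6% of all genes). Their median of 0.05 was close to that of all genes and turned to -0.01 under median-of-ratios scaling, and the list's median exon length was 5774 bases against 3734 for all genes. Mdc1, a scaffold at DNA breaks, had 19.8 to 30.1 TPM (median 22.6) in the 8 mutant pools, against 17.6 to 25.4 TPM in the WT pools (0.22 ± 0.04), and Prkdc, the kinase of end joining, 15.7 to 19.8 TPM (median 17.3) in the 8 mutant pools, against 14.2 to 15.6 TPM in the WT pools (0.22 ± 0.06).

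Immediate early and heat shock genes, which respond within minutes to signals and to handling, had 29 of 32 above 0 (70.4% of all genes), 6 at an unadjusted p under 0.05, all positive (11.6% of all genes), and a median of 0.16. Jun, a subunit of the AP-1 factor, had 34.6, 31.4, 29.98 and 308 TPM in Idh1R132H pools 1 to 4 and 48.3, 55.9, 35.3 and 379 TPM in Idh2R140Q pools 1 to 4, against 28.8, 19.01, 18.8 and 247 TPM in WT pools 1 to 4. The pools numbered 4 stood far above the rest, and within each number both mutants lay above WT. The difference was 0.70 ± 0.17 with the number as a block (adjusted p = 0.28) and 0.78 without the number 4 pools. Dusp1, a phosphatase of the same response, had 31.5, 30.6, 35.3 and 235 TPM in Idh1R132H pools 1 to 4 and 45.5, 55.6, 30.9 and 294 TPM in Idh2R140Q pools 1 to 4, against 30.9, 20.6, 29.98 and 165 TPM in WT pools 1 to 4, a difference of 0.51 ± 0.18. Of 24 NF-kB and inflammatory genes, 21 lay above 0 (70.4% of all genes) and 6 had an unadjusted p under 0.05, all positive (11.6% of all genes), with a median of 0.14, 0.05 in Idh1R132H and 0.20 in Idh2R140Q. The part of sample handling in these values was not tested.

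Ribosomal protein and respiratory chain genes lay mostly below WT, also under every scaling run, though these runs moved the median gene down. Of 81 cytosolic ribosomal protein genes 2 lay above 0 (70.4% of all genes). An unadjusted p under 0.05 was reached by 39 with a negative difference and 0 with a positive one (2.63% and 11.6% of all genes). The median was -0.09, with -0.02, -0.16, -0.08 and -0.09 in numbers 1 to 4. Rpl35 had 219, 228, 179.9 and 178 TPM in Idh1R132H pools 1 to 4 and 235, 208, 195 and 168 TPM in Idh2R140Q pools 1 to 4, against 241, 246, 215 and 197 TPM in WT pools 1 to 4. The groups overlapped across numbers, within numbers the mutants lay below WT, and the difference was -0.16 ± 0.04 (adjusted p = 0.28). Rpl36 had 1126 to 1480.3 TPM (median 1294) in the 8 mutant pools, against 1219 to 1635 TPM in the WT pools (-0.13 ± 0.03). Of 76 nuclear genes of oxidative phosphorylation 5 lay above 0 (70.4% of all genes), with a median of -0.08. An unadjusted p under 0.05 was reached by 19, all negative (2.63% of all genes). Ndufb11, a subunit of complex I, had 207 to 287 TPM (median 269) in the 8 mutant pools, against 242 to 308 TPM in the WT pools (-0.13 ± 0.04), and Uqcrh, of complex III, 184 to 266 TPM (median 240.1) in the 8 mutant pools, against 207 to 279 TPM in the WT pools (-0.10 ± 0.03). These genes are short, with median exon lengths of 1770 and 1737 bases. Once the trend with length was taken out of each library (an alternative added after the data were seen), the medians were -0.04 and -0.02. The 8 mitochondrially encoded transcripts tested had a median of 0.02, with summed levels of 10212 to 16242 TPM in mutants and 10075 to 16286 TPM in WT.

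The pooled value covers genes for which the mutants differed from each other in level, with no call after adjustment. Between Idh2R140Q and Idh1R132H, 1614 genes (11.6%) had an unadjusted p under 0.05, 1139 (8.16%) higher and 475 (3.4%) lower in Idh2R140Q, and limma called 0 (0.0%). Against the shared WT pools the unadjusted counts were 1212 (8.68%) for Idh1R132H and 2974 (21.3%) for Idh2R140Q, with 0 called in both. Fhl2 (ENSMUSG00000008136, chromosome 1, 43123074 to 43196984, minus strand), a LIM domain cofactor of transcription, had 6.32, 7.80, 6.41 and 8.17 TPM in Idh1R132H pools 1 to 4 and 2.49, 1.92, 1.65 and 2.85 TPM in Idh2R140Q pools 1 to 4, against 1.12, 2.09, 1.85 and 2.84 TPM in WT pools 1 to 4. The 4 Idh1R132H pools lay above all others, and Idh2R140Q overlapped WT. Its difference was -1.35 ± 0.14 between the mutants (adjusted p = 0.118), 1.48 ± 0.14 in Idh1R132H (0.0558) and 0.13 ± 0.14 in Idh2R140Q (0.584). In one fit of all 20 libraries, where more pools share the estimate of spread, Fhl2 was called, with adjusted p = 0.0053 between the mutants and 0.0016 for Idh1R132H against WT. The 4 FHL genes tested had a pooled median of 0.21.

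Genes of lymphoid priming, with a pooled median of 0.12, had a median of 0.23 in Idh2R140Q minus Idh1R132H (all genes 0.04). Of 27 members 27 lay above 0 (64.3% of all genes), and 17 had an unadjusted p under 0.05, all higher in Idh2R140Q (8.16% of all genes). Markers of mature lymphoid cells lay on the same side. The B lineage list stood at a median of 0.46, with 5 of 5 above 0 and 3 at an unadjusted p under 0.05, and the T and NK list stood at 0.33, with 4 of 5 and 2. The summed levels were 96.1 to 117 TPM in Idh2R140Q, 84.97 to 98.5 TPM in Idh1R132H and 94.4 to 110.1 TPM in WT for the B lineage, and 57.8 to 97.1, 40.4 to 93.6 and 48.3 to 87.5 TPM for T and NK. Their part in the lymphoid values was not tested. Against WT the lymphoid priming median was -0.001 in Idh1R132H and 0.26 in Idh2R140Q. Tespa1, a lymphocyte signalling protein, had 107, 117, 97.5 and 152 TPM in Idh1R132H pools 1 to 4 and 138, 141, 123 and 176 TPM in Idh2R140Q pools 1 to 4, against 106, 126, 93.5 and 150.3 TPM in WT pools 1 to 4. In each number the Idh2R140Q pool was the highest of the 3, and the mutants differed by 0.29 ± 0.04 (adjusted p = 0.225). Dntt, the polymerase that adds bases at antigen receptor joins, had 510.3, 845, 713 and 973 TPM in Idh1R132H pools 1 to 4 and 1121, 901, 899 and 1243 TPM in Idh2R140Q pools 1 to 4, against 705, 1032, 834 and 1092 TPM in WT pools 1 to 4, with 0.48 ± 0.14 between the mutants (0.331). Ltb, the lymphotoxin subunit, had 67.1, 72.99, 50.2 and 85.3 TPM in Idh1R132H and 92.9, 118, 52.3 and 106 in Idh2R140Q, against 70.9, 82.98, 47.5 and 86.4 in WT (0.38 ± 0.08, 0.277). The number 3 pools of the mutants differed little in Ltb. Dntt and Ltb were named after their values were seen, as were Epor, Klf1, Mpo and Mcpt8.

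Erythroid priming genes ran the other way. Their median between the mutants was -0.24, with 13 of 28 lower and 1 higher in Idh2R140Q at an unadjusted p under 0.05 (3.4% and 8.16% of all genes), and 0.17 in Idh1R132H and -0.08 in Idh2R140Q against WT. Epor, the erythropoietin receptor, had 25.8, 25.2, 22.5 and 27.2 TPM in Idh1R132H pools 1 to 4 and 15.9, 19.5, 18.1 and 23.5 TPM in Idh2R140Q pools 1 to 4, against 18.7, 20.9, 22.3 and 24.05 TPM in WT pools 1 to 4. Within every number Idh1R132H was above Idh2R140Q, a difference of -0.38 ± 0.08 (adjusted p = 0.277). Klf1, the erythroid master factor, had 78.7, 67.8, 62.2 and 57.2 TPM in Idh1R132H pools and 45.6, 53.9, 56.5 and 52.8 in Idh2R140Q pools, against 54.01, 48.2, 63.2 and 57.2 in WT (-0.34 ± 0.12 between the mutants). Granulocyte-monocyte genes had a median of -0.19 between the mutants, 11 of 34 lower and 1 higher in Idh2R140Q (3.4% and 8.16% of all genes), and 0.01 pooled, with -0.05, 0.16, 0.12 and -0.35 in numbers 1 to 4. Mpo, the granule peroxidase, had 4989, 4042, 5281 and 3608 TPM in Idh1R132H pools 1 to 4 and 3071, 2619, 5392 and 2599 TPM in Idh2R140Q pools 1 to 4, against 3860.0, 2573, 4042 and 3956 TPM in WT pools 1 to 4. Idh2R140Q pool 3, the one with the most neutrophil RNA, was the highest of the 12. Without the number 4 pools the medians between the mutants were 0.24 for lymphoid, -0.31 for erythroid and -0.20 for granulocyte-monocyte genes.

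**Figure D4:**
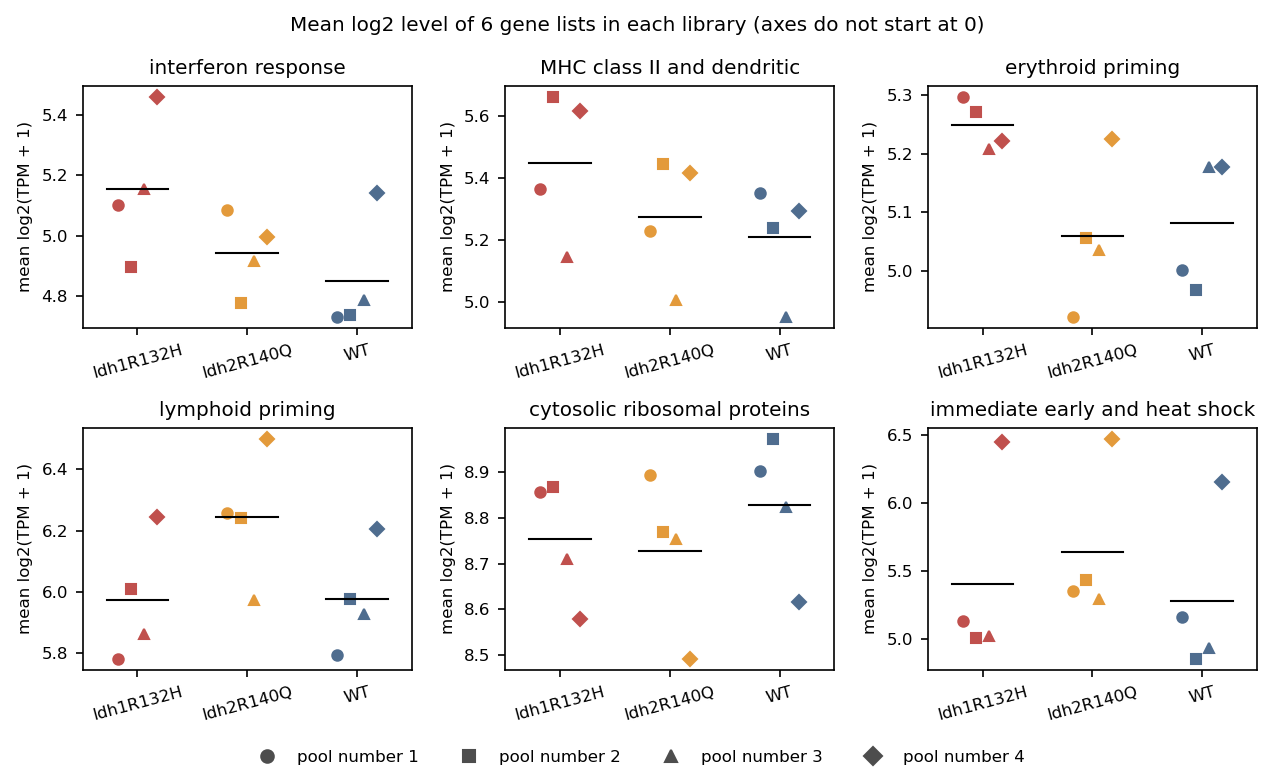
Mean log2(TPM + 1) of the members of 6 gene lists in each library of Idh1R132H, Idh2R140Q and WT, with a symbol for the pool number and a line for the group mean (n = 4). Erythroid genes sit at 5.21 to 5.30 in Idh1R132H, above 3 of 4 Idh2R140Q pools, and the number 4 pools are the highest of their group for the immediate early and lymphoid lists and the lowest for ribosomal proteins.

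Markers of basophils, mast cells and eosinophils were at higher levels in Idh1R132H than in Idh2R140Q. Basophil and mast cell markers had a summed level of 598, 522, 475 and 497 TPM in Idh1R132H pools and 371, 389, 333 and 404 TPM in Idh2R140Q pools, against 374, 427, 334 and 374 TPM in WT, so Idh1R132H lay above all the rest. Of the 8 tested, 5 had an unadjusted p under 0.05 and were lower in Idh2R140Q (3.4% of all genes). Mcpt8, a basophil protease, had 137, 125, 119.6 and 125 TPM in Idh1R132H pools 1 to 4 and 93.8, 81.8, 91.1 and 104 TPM in Idh2R140Q pools 1 to 4, against 94.2, 113, 103 and 98.8 TPM in WT pools 1 to 4 (-0.45 ± 0.08 between the mutants, adjusted p = 0.266). Eosinophil markers summed to 523, 214, 237 and 145 TPM in Idh1R132H and 360.3, 97.1, 124 and 79.4 TPM in Idh2R140Q, against 291, 74.5, 139.5 and 137 TPM in WT, highest in number 1 of every group. Their part in the differences between the mutants was not tested. Of the MHC class II and dendritic list 12 of 14 members lay above 0 (70.4% of all genes) in the pooled comparison. The median was 0.14, with -0.04, 0.22, 0.05 and 0.18 in numbers 1 to 4. Only 1 member had an unadjusted p under 0.05, with a positive difference (11.6% of all genes). H2-Eb1 had 91.6, 129.7, 55.1 and 100.2 TPM in Idh1R132H pools 1 to 4 and 54.3, 87.1, 41.1 and 54.05 TPM in Idh2R140Q pools 1 to 4, against 88.01, 58.6, 33.7 and 46.9 TPM in WT pools 1 to 4. WT pool 1 was high, and the difference was 0.74 ± 0.19 in Idh1R132H and 0.09 ± 0.19 in Idh2R140Q.

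The other genes with the smallest p between the mutants were Il17re, Rabep2 and Maged1, with adjusted p-values of 0.225. Il17re, an interleukin-17 receptor chain, had 22.8, 28.7, 23.2 and 40.03 TPM in Idh1R132H pools 1 to 4 and 31.9, 39.7, 26.6 and 51.04 TPM in Idh2R140Q pools 1 to 4, against 26.5, 33.8, 24.97 and 43.5 TPM in WT pools 1 to 4, a difference of 0.36 ± 0.05. In every number Idh1R132H was lowest, WT between and Idh2R140Q highest, so that the pooled value was 0.02 ± 0.11. Rabep2, a Rab effector of endosomes, kept the same order (0.34 ± 0.05), and so did Maged1 (0.37 ± 0.06).

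S phase genes had 11 of 39 above 0 (70.4% of all genes), none at an unadjusted p under 0.05 in either direction, and a median of -0.02. Stem cell genes had 25 of 38 above 0 (70.4% of all genes) and a median of 0.04, with Fgd5 at 0.35 ± 0.14. The median was 0.08 for p53 targets, 0.06 for megakaryocyte genes, 0.04 for haem and iron genes, 0.04 for MHC class I, and 0.03 for mitosis, and each turned negative under at least 1 other scaling. Mki67, the proliferation marker, had 76.9 to 109 TPM (median 83.9) in the 8 mutant pools, against 64.9 to 84.7 TPM in the WT pools (0.20 ± 0.05), and Fth1, the ferritin heavy chain, 3396 to 4349.6 TPM (median 3936) in the 8 mutant pools, against 3917 to 4776 TPM in the WT pools (-0.14 ± 0.04). The 8 Ifitm and Ly6 genes had 0 higher and 2 lower at an unadjusted p under 0.05 (11.6% and 2.63% of all genes). Their median was -0.05, and 0.05 without the number 4 pools.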

How the data were processed

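The deposited values are TPM for 46078 Ensembl IDs in 20 libraries of 1000000 each. Per the submitters' processing notes reads were handled with Trim Galore, STAR and featureCounts on mm10, while versions, annotation and strand setting are not given in the sources used here. Columns were matched by mutation and pool number, and those of Idh2R140Q carry a prefix naming Idh1. Symbols, positions and exon lengths came from GENCODE M21, which holds 45229 of the IDs, and the rest took at most 0.128% of TPM. TPM times exon length gave whole reads for 90.05 to 91.16% of values up to 30 reads (tolerance 0.1), from which depth was rebuilt.

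Genes reaching 1 TPM on average over the 12 libraries were fitted on log2(TPM + 1) with limma 3.58.1 (R 4.3.3) with a variance trend, a 2-level group term and the pool number as a block, and called at an adjusted p under 0.05. Each mutant and the difference between them came from a 3-group fit of the same libraries. The script was tested on simulated data. Pools are the replicates. The naming rule took up to 12 genes per direction by p among those without overlap, the 5 smallest p between the mutants, and up to 4 members of each list, leaving out unnamed models, sex-linked genes and pseudogenes; not all of these are printed, and some sterol genes are not reported here. The members and lists were chosen with earlier results of these data known. The alternatives are in the closing section. Tables were made with Python 3.11.15, pandas 2.3.3 and numpy 2.4.6, and figures with matplotlib 3.10.9.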

Additional observations from a re-analysis of the deposited data

Results flagged for a closer look

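Single pools stood far from the others of their group in 22 of 224 groups of values checked for the genes described, where chance marks about 5%. Most belong to the number 4 pools. In Idh1R132H pool 4 these were Idh2 at 624 TPM, Hmga2 at 7.63, Rabep2 at 31.2, Parp14 at 32.4, Jun at 308, Dusp1 at 235 and P4ha1 at 41.9 TPM. In Idh2R140Q pool 4 they were Zbtb16 at 10.0 (among all 8 mutant pools), Rabep2 at 38.4, Parp14 at 28.8, Stat2 at 51.6, Jun at 379 and Dusp1 at 294 TPM. In WT pool 4 they were Sntb1 at 12.2, Rabep2 at 32.8, Stat2 at 50.9, Jun at 247, Dusp1 at 165 and P4ha1 at 38.9 TPM. The other 3 were Hk2 at 23.4 TPM in Idh1R132H pool 2, Slc35d3 at 7.55 TPM in WT pool 2 and Thyn1 at 59.4 TPM in WT pool 1.

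Of the 56 genes checked, 3 had every Idh1R132H pool below, and every Idh2R140Q pool above, the WT pool of the same number. All 3 were among the 5 genes named for the smallest p between the mutants. The difference of Idh2R140Q minus Idh1R132H was 0.36 for Il17re, 0.34 for Rabep2 and 0.37 for Maged1, each with an adjusted p of 0.225 by limma, so none passed the test of that difference.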

How the results depend on the processing

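Tried settings were a fit without the block, a 3-group fit, all 20 libraries, sex in place of the block, 0.1 as the pseudocount, all genes without a filter, a minimum mean of 5 TPM, 3 scalings, no variance trend, library weights, each library left out, no number 4 pools, and, added after the data were seen, limma-voom and a removed length trend. Of 52 genes with a pooled value in this check, 1 changed sign: Idh2, at -0.054 under median-of-ratios scaling, -0.00507 with rescaled TPM and -0.031 by limma-voom. With 1 library left out it ran from -0.0076 (without WT 1; -0.0062 without Idh2R140Q 3) to 0.032.

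The unadjusted count of the pooled comparison was 1985. It was 475 with no replicate block, 481 with all 20 libraries and 547 with sex, and 1074 to 2260 with 1 library left out, 1074 without WT pool 2. Pools with the same number deviated together for 11 of 12 pairs (r from 0.092 to 0.54, other pairs -0.31 to 0.17), 1 pair under 0.1, and all 12 libraries correlated best with their own number, so the block rests on the rule of the comparison and on this hint.

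Calls of the pooled comparison were 0, but 1 with a pseudocount of 0.1, 3 with no filter and 0 to 1 with 1 library left out (Cpt1a at -0.30, adjusted p = 0.0352, without Idh1R132H 2). Between the mutants calls were 1 with all 20 libraries, 1 with library weights, 1 without number 4 and 0 to 2 with 1 library left out. For Idh1R132H against WT they were 2 with all 20 libraries, 1 with sex, 1 with weights, 1 without number 4, 1 with the length trend removed and 0 to 4 with 1 library left out. For Idh2R140Q against WT they were 1 with a pseudocount of 0.1, 3 with no filter and 0 to 1 with 1 library left out. The cause of these moves was not tested.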

Other observations

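Genes that lie beside the targeted genes were counted in windows of 2 Mb, chosen after the values were seen. Around Idh1 on chromosome 1, 8 of 20 tested genes (40%) had an unadjusted p under 0.05 between Idh2R140Q and Idh1R132H, and around Idh2 on chromosome 7 it was 13 of 48 (27.1%), against 11.6% of all genes, with none called. Acadl (ENSMUSG00000026003, chromosome 1, 66830839 to 66863277, minus strand), which encodes the long-chain acyl-CoA dehydrogenase, had 165, 177, 167 and 203 TPM in Idh1R132H pools 1 to 4 and 245, 205, 248 and 251 TPM in Idh2R140Q pools 1 to 4, against 222, 229, 229.9 and 289 TPM in WT pools 1 to 4. The 4 Idh1R132H pools lay below all WT pools, with a difference of -0.44 ± 0.07 (adjusted p = 0.289) against -0.03 ± 0.07 in Idh2R140Q. Its neighbour Lancl1 had 29.4, 32.4, 30.8 and 33.7 TPM in Idh1R132H pools 1 to 4 and 40.2, 37.8, 35.2 and 44.8 TPM in Idh2R140Q pools 1 to 4, against 37.4, 40.6, 38.4 and 45.5 TPM in WT pools 1 to 4, with -0.35 ± 0.05 and -0.04 ± 0.05. Near Idh2, Ap3s2, an adaptor complex subunit, had 37.8, 38.8, 43.3 and 42.6 TPM in Idh1R132H pools 1 to 4 and 33.01, 32.9, 34.2 and 36.1 TPM in Idh2R140Q pools 1 to 4, against 38.3, 36.9, 42.5 and 41.3 TPM in WT pools 1 to 4. Here the Idh2R140Q pools were the low ones, with -0.21 ± 0.04 in Idh2R140Q against 0.03 ± 0.04 in Idh1R132H. Hddc3 had 17.6, 19.7, 21.6 and 21.98 TPM in Idh1R132H and 20.2, 32.8, 56.2 and 61.2 TPM in Idh2R140Q, against 18.00, 21.6, 17.05 and 22.6 TPM in WT, so Idh2R140Q pools 2 to 4 were above all others and pool 1 was not. Against WT, the windows held 2 of 20 genes (10%) for Idh1R132H around Idh1 and 14 of 48 (29.2%) for Idh2R140Q around Idh2, where 8.68% and 21.3% of all genes had such a p. For the mutant not targeted in the window, they held 7 of 20 (35%) for Idh2R140Q around Idh1. Around Idh2 they held 4 of 48 (8.33%) for Idh1R132H. The greater share around Idh1 was thus that of Idh2R140Q.

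The pseudogene Gm14044 had 27.01, 28.8, 25.1 and 0.545 TPM in Idh1R132H pools 1 to 4 and 0.692, 0.782, 1.11 and 0.41 TPM in Idh2R140Q pools 1 to 4, against 0.729, 0.468, 1.17 and 1.23 TPM in WT pools 1 to 4. Only Idh1R132H pools 1 to 3 were above 2 TPM, and pool 4 of that genotype was at the level of the rest. The gene model Gm23368, annotated as a miRNA, was listed at 0 TPM in the 4 WT pools and had 0.773 to 4.77 TPM in the mutant pools, with 0 to 2.62 TPM in Idh2R172K. These levels are low and the reads behind them are not given here, so no on or off state can be read from them.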
